A study of Bos taurus with 32 samples.

Results

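The microRNAs described here are those of the miR-193 and miR-365 hairpins on a bovine miRNA array. They were taken by name as every array feature called bta-miR-193a, bta-miR-193b or bta-miR-365, with or without an arm suffix. This gave 6 of all the miRNAs of the array, which held 13440 miRNA spots at 20 for each miRNA. They were bta-miR-193a, bta-miR-193a-3p, bta-miR-193a-5p, bta-miR-193b, bta-miR-365-3p and bta-miR-365-5p. They were measured in 32 samples of fat from 16 Hereford × Aberdeen Angus steers. The steers were yearlings when the diets began and were slaughtered some months later. The control diet was barley grain, barley silage and a supplement, and 8 steers ate it. The other 8 steers ate the high fat diet, in which flaxseed took the place of some of the grain. Each steer gave a sample of subcutaneous fat (backfat) and a sample of visceral fat (perirenal fat) after slaughter, so that the 4 groups held 8 samples each. Every sample was whole tissue of 1 animal, and in such samples fewer cells of a type and less RNA per cell cannot be told apart.

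A miRNA hairpin is cut into a duplex whose strands are called the 5p and the 3p arm, and usually the arm that enters the Argonaute protein is kept while its partner is degraded. The strand that is kept pairs with messenger RNAs and lowers their output. The miR-193 and miR-365 hairpins lie side by side in mammalian genomes and can be transcribed together, and in mouse cells the miR-193b and miR-365 cluster is known for promoting the differentiation of brown fat cells, which burn fat for heat. Perirenal fat of ruminants is brown at birth and later turns white. In the RefSeq annotation of the cattle genome, MIR193B and MIR365-1 were neighbours with 0 other genes starting between them. MIR193A and MIR365-2 lay on 1 chromosome with 1 gene, MIR2333, starting between them.

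The arrays differed in brightness with the diet. Summed over all miRNAs, the median high fat array was 5.42 times as bright as the median control array, while the same ratio was 0.847 for the labelling spike-ins (RNAs added in known amounts) and 0.957 for the local background. The arrays of each group filled 1 slide, and the slides of each diet were scanned in 1 session, so that diet, slide and session cannot be told apart, nor depot and slide within a diet. For scaling, each array's 75th percentile over the 91 miRNAs that every array detected was taken as its unit, and levels are log2 of this scaled intensity. The 91 miRNAs then had a median diet difference of -0.91 in subcutaneous and -0.80 in visceral fat, and members are also given relative to that median. The miRNAs listed for fat tissue were miR-103, miR-107, miR-143, miR-145, miR-30a-5p, miR-30d, miR-378, let-7a and let-7b. They are not specific to fat cells, as miR-145 is also one of smooth muscle and stromal cells. Between 7 and 9 of these 9 were detected on all 8 arrays of each group. Their summed scaled intensity was lower in high fat steers without overlap, at 62.4 to 119 in control and 16.6 to 20.9 in high fat steers for subcutaneous fat and at 79.2 to 118 and 17.1 to 29.0 for visceral fat, whereas before scaling the diets overlapped in each depot. Taken singly, 19.7% of all miRNAs tested were lower without overlap after scaling in subcutaneous and 18.0% in visceral fat. Of the 7 muscle miRNAs, 0 were detected on all 8 arrays of a control group, while 3 were on those of high fat subcutaneous and 2 on those of high fat visceral fat. Their summed intensity before scaling was 0 to 7.30 in control and 23.5 to 303 in high fat steers for subcutaneous fat, and 0 to 25.7 and 31.7 to 206 for visceral fat. After scaling the diets overlapped, and the muscle miRNAs bta-miR-208a and bta-miR-208b were undetected on every array. Of the 7 blood and immune miRNAs, 3 were detected on all 8 arrays of each control group and 5 on all 8 of each high fat group, and their summed scaled intensity ranged from 0.303 to 0.613 in control steers and from 0.282 to 1.06 in high fat steers. The liver miRNA bta-miR-122 was undetected on all subcutaneous arrays and reached an intensity of 42.6 in visceral fat of control and 434 in that of high fat steers, and of 6 epithelial miRNAs 0 were detected on a control array and 1 on all 8 arrays of each high fat group. The part of these lists in the diet differences was not tested. The subcutaneous sample of control steer 108 stood apart, because its bta-miR-196a, a miRNA of the HOX gene clusters that was high in visceral fat, had a scaled intensity of -2.43 (log2), as in visceral fat. The results are given with that sample, and leaving it out changed no call of a member.

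The 3p arm of miR-193a was bright on the high fat diet and close to the detection limit on the control diet. The total intensity of bta-miR-193a-3p, before scaling, was 391 to 1208 in subcutaneous fat of steers fed the high fat diet (median 638) and 129 to 1558 in their visceral fat (median 449). On the control diet it was detected in 4 of 8 subcutaneous samples, at 5.21 to 9.75, and in 3 of 8 visceral samples, at 5.85 to 10.1. No control sample overlapped with a high fat sample in either depot, before or after scaling. After scaling, 33.0% of all miRNAs tested were higher with no overlap in subcutaneous fat and 28.3% in visceral fat. The steers whose 3p arm was detected in subcutaneous fat (108, 209, 307 and 308) were not those in which it was detected in visceral fat (211, 405 and 410), and in steer 111 it was detected in neither depot.

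**Figure D1:**
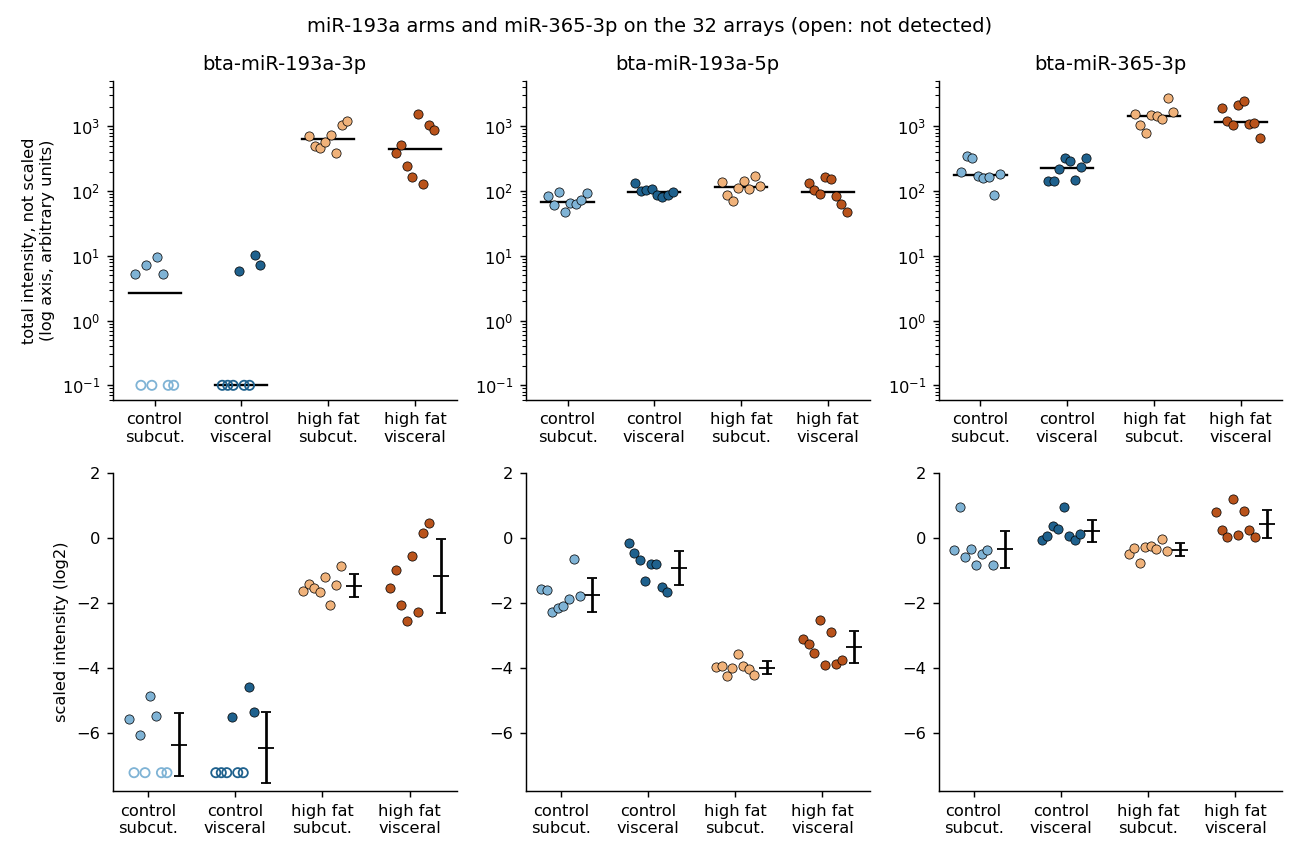
Total intensity before scaling (top, log axis, arbitrary units) and log2 scaled intensity (bottom) of the 3 members tested, with a point for each of the 32 arrays. Open points are arrays on which the miRNA was not detected, black lines in the upper row are medians and black bars in the lower row are the mean ± SD of 8 arrays. The 16 high fat arrays of bta-miR-193a-3p lie above all control arrays in both rows, bta-miR-193a-5p is lower on the high fat diet in the lower row alone, and bta-miR-365-3p is higher on it in the upper row alone.

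Mean scaled intensity of bta-miR-193a-3p rose from -6.36 ± 0.98 to -1.48 ± 0.35 in subcutaneous fat (log2, SD, n = 8 each). The difference was 4.88 (standard error 0.46, adjusted p = 4.23e-11, limma). In visceral fat the mean rose from -6.45 ± 1.1 to -1.18 ± 1.13 (log2, SD, n = 8 each), a difference of 5.27 with an adjusted p of 9.48e-12 from limma. These means hold undetected arrays at a common floor of -7.22. With each undetected array set to the weakest scaled intensity that it called detected, the differences were 4.33 and 4.21 (adjusted p = 1.68e-12 and 4.71e-12), and with the deposited values they were 3.679 and 4.203. Their size thus depends on the value given to the 9 of 16 control arrays on which the 3p arm was undetected. Relative to the median of the 91 miRNAs the differences were 5.78 and 6.07. The 3p arm passed the filter of 8 detected arrays through its high fat samples, since it was detected on 7 control arrays in all. The rise was past the threshold in both depots under 14 of 15 alternatives. Under the other one, background correction by normexp with an offset of 50, subcutaneous fat had a difference of 0.23 with an adjusted p of 0.325 and visceral fat one of 0.46 with an adjusted p of 0.0504.

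The 5p arm of the same hairpin moved the other way relative to the rest of the array. Bta-miR-193a-5p was detected on all 32 arrays. Before scaling its median intensity was higher in subcutaneous fat of high fat steers and about equal in visceral fat, while most miRNAs grew brighter. In subcutaneous fat the lowest, median and highest intensities were 48.3, 68.9 and 98.1 in control steers, and high fat steers had 70.1, 116 and 174. In visceral fat they were 80.7, 97.1 and 131 in control steers, and high fat steers had 47.5, 97.2 and 166. The diets overlapped in both depots before scaling, and the medians were 1.69 times as high in subcutaneous fat and 1.0 times as high in visceral fat of high fat steers. After scaling they no longer overlapped, and among all miRNAs tested 19.7% were lower without overlap in subcutaneous fat and 18.0% in visceral fat.

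Mean scaled intensity of bta-miR-193a-5p fell from -1.76 ± 0.52 to -3.99 ± 0.20 in subcutaneous fat (log2, SD, n = 8 each), with a difference of -2.23 (standard error 0.22, adjusted p = 2.21e-10, limma). It fell from -0.93 ± 0.53 to -3.36 ± 0.50 in visceral fat (log2, SD, n = 8 each), with a difference of -2.43 and an adjusted p of 3.79e-11 from limma. Relative to the median of the 91 miRNAs the differences of the 5p arm were -1.32 and -1.63. The direction depended on the scaling, since without scaling the subcutaneous difference was 0.68 (adjusted p = 0.00655), and with arrays scaled to the labelling spike-ins the depots had differences of 0.94 and 0.45 (adjusted p = 9.06e-05 and 0.0487). Without scaling visceral fat had a difference of -0.0058 (adjusted p = 0.984), and scaling to bta-miR-181a left the subcutaneous difference at -0.22 (adjusted p = 0.391).

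Because both arms were read on the same array, the change of the 3p arm against the 5p arm does not move with the scaling of an array on which both were detected. Probes differ in how they bind, so the difference between the arms (log2 3p minus log2 5p) has no meaning as a level, and its change between diets is what was compared. It ranged from -6.56 to -2.74 in subcutaneous fat of control steers and from 1.88 to 3.34 in that of high fat steers. In visceral fat it ranged from -7.07 to -3.08 in control steers and from -0.035 to 4.22 in high fat steers, again without overlap. The mean changed from -4.60 ± 1.27 to 2.51 ± 0.41 in subcutaneous fat (SD, n = 8 each), by 7.11. In visceral fat it changed from -5.52 ± 1.58 to 2.18 ± 1.57 (SD, n = 8 each), by 7.70. Two-sided exact permutation tests gave p = 0.000155 in each depot, the smallest p that 8 samples against 8 allow, or 0.000311 adjusted over the 4 comparisons made. The 3p arm had passed the filter of 8 detected arrays through its high fat samples. On 9 of 16 control arrays it was at the floor. These p-values are therefore not separate evidence that the arm rose. With undetected arrays at their own limit the changes were 6.56 and 6.64. On the arrays where both arms were detected subcutaneous fat, with 4 control samples, had a change of 6.04 (exact permutation p = 0.00404), and visceral fat, with 3, a change of 5.84 (exact permutation p = 0.0121). With normexp they fell to 2.34 and 2.36, and the groups still did not overlap.

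**Figure D2:**
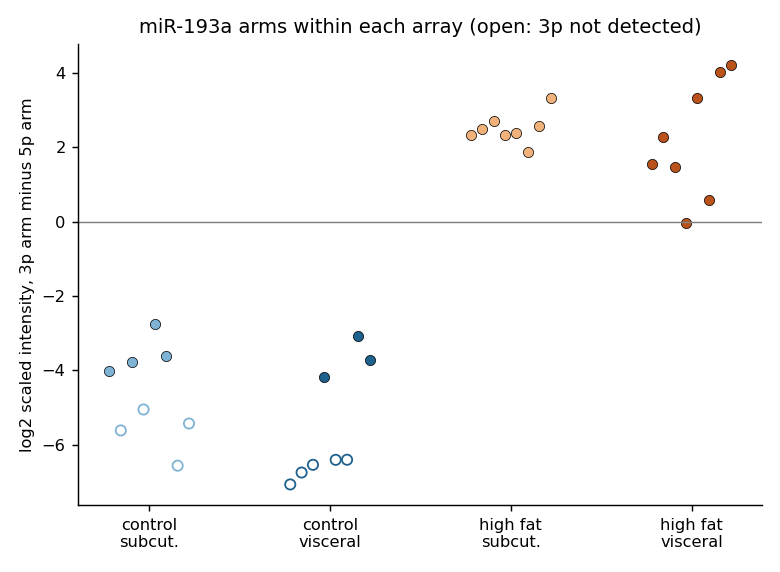
Log2 scaled intensity of bta-miR-193a-3p minus that of bta-miR-193a-5p on each of the 32 arrays, by diet and depot. Open points are arrays on which the 3p arm was not detected and was set to the floor. All 16 high fat arrays lie above all 16 control arrays, whose highest value is -2.74.

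The probes of each arm were also read singly, as the mean of the background-subtracted spots of an array, and medians are over the arrays of a group. Both probes of the 3p arm were near 0 on the control diet, with medians of 0.397 and 5.16 in subcutaneous fat, and there had medians of 94.9 and 856 in high fat steers. In visceral fat the 3p probes went from medians of -0.891 and 2.09 to 69.5 and 606. The probes of the 5p arm had ratios of the diets' medians of 1.47 and 1.67 in subcutaneous fat, whereas visceral fat had 0.916 and 1.03.

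Both arms of 65 hairpins had features on the array, and 11 hairpins, miR-193a included, had both arms among the 233 miRNAs tested. The gap between the diet differences of the arms of the other 10 hairpins had a median of 2.18 in the subcutaneous and 1.98 in the visceral depot. The widest of these was that of miR-425, at 5.40 and 5.18. The gap of miR-193a is not ranked against these, because its 7.11 and 7.70 hold the undetected control arrays of the 3p arm at the floor, and it was 2.34 and 2.36 with normexp. Gaps of other hairpins also hold undetected arrays at the floor. For example, bta-miR-425-5p was detected on 20 of 32 arrays, bta-miR-30b-3p on 21 and bta-miR-424* on 9. Both arms moved in opposite directions past the threshold in both depots for 3 hairpins, namely miR-193a, miR-425 and miR-30b. For miR-425 it was the 5p arm that rose, by 2.41 and 2.39, and the difference of the 3p arm was -2.99 and -2.78, though with normexp the 5p arm was negative as well (-1.50 and -1.31) and with the spike-ins the 3p arm was near 0 (0.092 and -0.10). For miR-30b, a hairpin of a family abundant in fat cells, the 5p arm rose by 3.16 and 3.14, and the 3p arm had differences of -0.67 and -0.77, which were positive with the spike-ins (1.48 and 0.80), without scaling and with scaling to bta-miR-181a. These hairpins are given as a description, with no test of one hairpin against another.

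**Figure D3:**
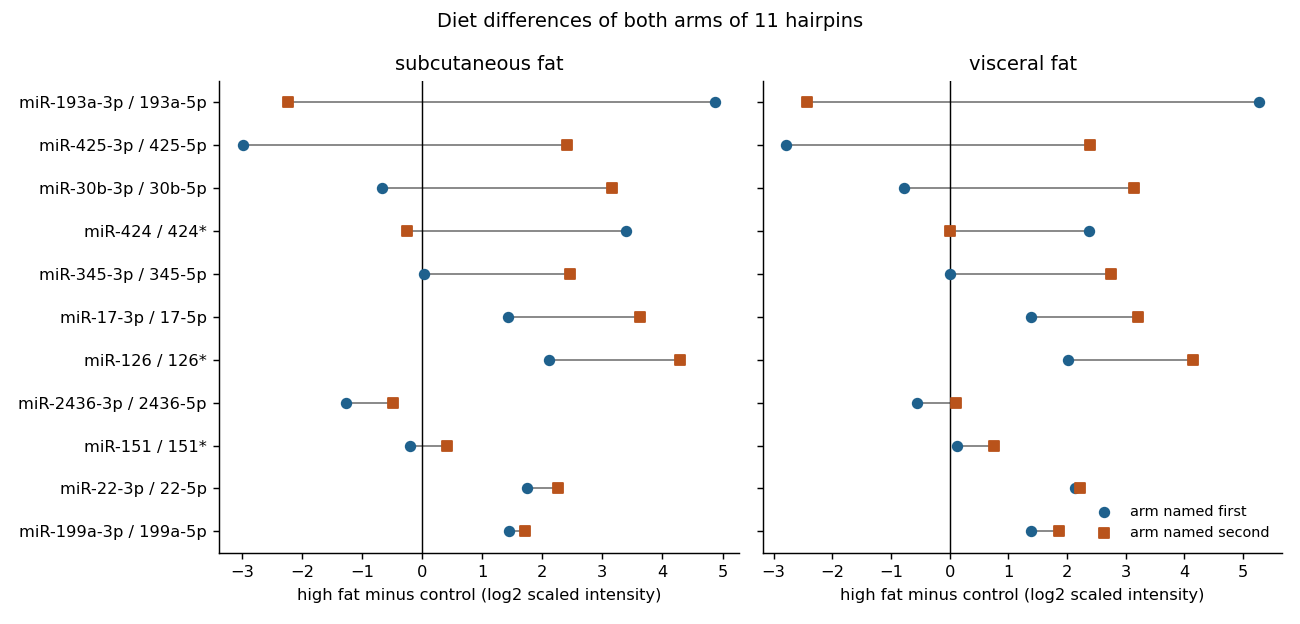
Diet difference (high fat minus control, log2 scaled intensity) of both arms of the 11 hairpins tested, in subcutaneous (left) and visceral fat (right). Circles are the arm named first and squares the arm named second, and the line between them is the gap. The line of miR-193a, at 7.11 and 7.70, includes 9 of 16 control arrays at the floor for the 3p arm, and the position of the zero line against all points depends on the scaling of the arrays.

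Bta-miR-365-3p, whose hairpins lie near those of miR-193a and miR-193b, was detected on every array. It kept pace with the 75th percentile of the 91 miRNAs used for scaling. Before scaling, its lowest, median and highest intensities in subcutaneous fat were 88.4, 178 and 351 in control steers, and high fat steers had 783, 1447 and 2726. In visceral fat they were 140.5, 225 and 326 in control steers, and high fat steers had 659, 1161 and 2451. The diets did not overlap before scaling in either depot, with ratios of the medians of 8.12 and 5.15. Among all miRNAs tested, 67.8% were higher without overlap before scaling in subcutaneous and 44.2% in visceral fat. After scaling the diets overlapped in both depots.

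The mean scaled intensity of bta-miR-365-3p was -0.36 ± 0.56 in control and -0.37 ± 0.20 in high fat steers for subcutaneous fat (log2, SD, n = 8 each). The difference of -0.01 had a 95% interval from -0.42 to 0.40 and an adjusted p of 1 from limma. In visceral fat the means were 0.21 ± 0.33 and 0.43 ± 0.44 (log2, SD, n = 8 each), and the difference of 0.22 had an interval from -0.19 to 0.63 and an adjusted p of 0.340 from limma. Relative to the median of the 91 miRNAs, the differences were 0.90 and 1.02. The call and the direction both turned on the scaling. The difference was 2.91 and 2.64 without scaling, 3.16 and 3.1 with the spike-ins and 2.0 and 2.1 with scaling to bta-miR-181a, the reference miRNA of the study, all past the threshold. With the percentile taken over all miRNAs of the array it was -1.24 and -0.90, and the deposited log2 values gave -1.40 and -0.85, also past the threshold. With normexp the visceral difference was 0.35 (adjusted p = 0.0353). Both probes of bta-miR-365-3p behaved alike, with ratios of the medians before scaling of 8.15 and 8.36 in subcutaneous fat, whereas visceral fat had 5.06 and 5.12.

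**Figure D4:**
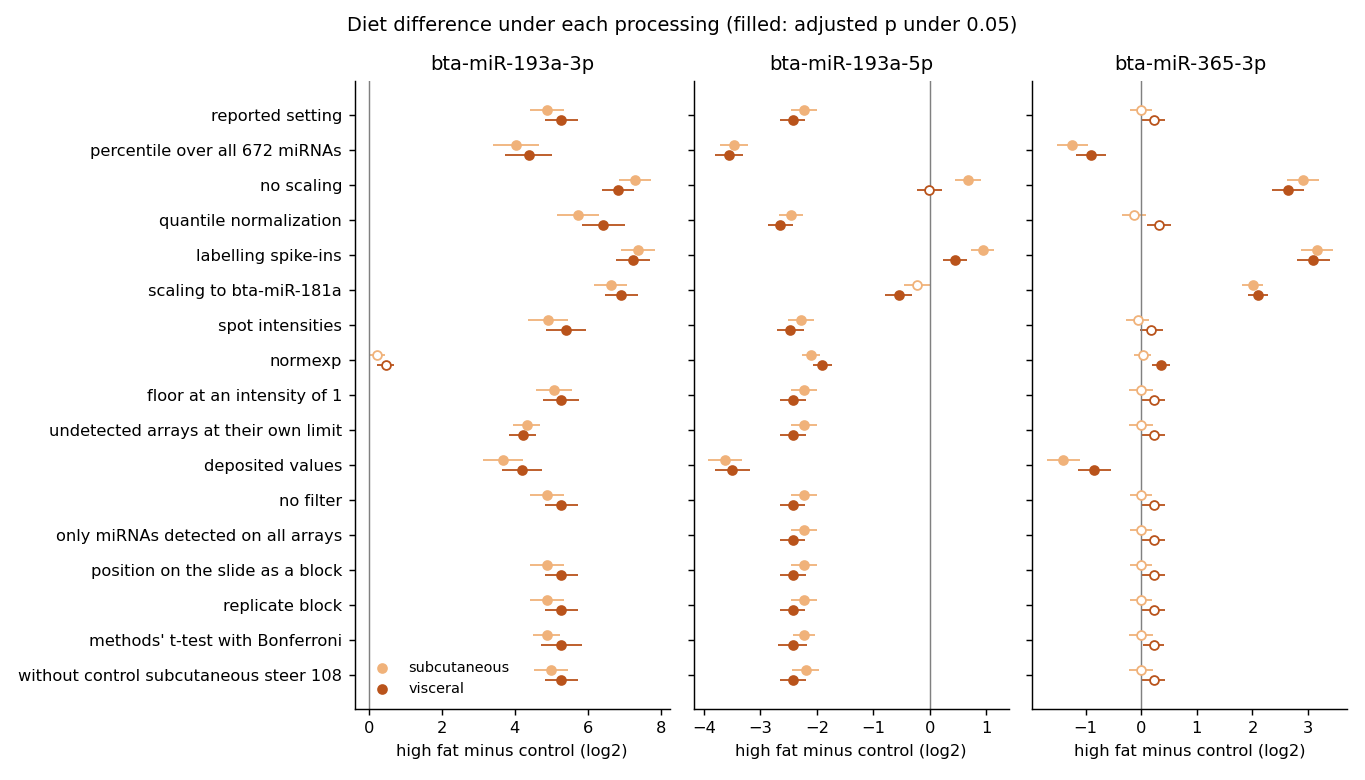
Diet difference (high fat minus control, log2) of the 3 members tested under the reported setting and each alternative, with the standard error as a bar and filled points where the adjusted p was under 0.05. Bta-miR-193a-3p is above 0 throughout and not past the threshold with normexp (0.23 and 0.46), whereas bta-miR-193a-5p is above 0 with the spike-ins in both depots and with no scaling in subcutaneous fat, and bta-miR-365-3p lies between -1.40 and 3.16.

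Of the 3 members tested, 1 rose with the high fat diet and 1 fell in each depot. Over all miRNAs tested, 41.6% rose and 34.3% fell in subcutaneous fat (76.0% in either direction), and 42.1% rose and 29.6% fell in visceral fat (71.7%). The share of members called was thus near that of all miRNAs.

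The other 3 members were at or below the detection limit. Bta-miR-193a, the feature without an arm suffix, was detected on 0 of 32 arrays, and both of its probes had group medians below 0 in all 4 groups. Bta-miR-193b, named for the cluster that promotes brown fat differentiation, was detected on 4 arrays, all of the high fat diet. Its intensities were 4.21 and 7.46 in the subcutaneous samples of steers 103 and 411, and 4.96 and 5.26 in the visceral samples of steers 204 and 302. These values lie at the low end of the intensities called detected. More miRNAs were detected on high fat arrays in general, with a median of 229 against 147.5 on control arrays. The second probe of bta-miR-193b had medians of 1.78 and 1.71 in subcutaneous and visceral fat of control steers, and of 5.75 and 4.44 in those of high fat steers, while its first probe was below 0 in the median of every group. Bta-miR-365-5p was detected on 1 array, the subcutaneous sample of high fat steer 103, at 5.02. A miRNA below the limit was not detectable on these arrays, which does not show its absence, and no fold was computed for these 3 members.

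Each group had its own slide, so that depot and slide cannot be told apart within a diet. Between the depots, bta-miR-193a-5p and bta-miR-365-3p were higher in visceral than in subcutaneous fat on both diets, and bta-miR-193a-3p did not pass the threshold on either. That made 2 of 3 members on each diet, all higher in visceral fat, while among all miRNAs tested 18.9% passed in control steers (6.87% as higher in visceral fat) and 26.2% in high fat steers (11.6% as higher). Both calls, on both diets, depended on the scaling.

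On the control diet, bta-miR-193a-5p was higher in visceral fat by 0.83 (log2 scaled intensity, standard error 0.22, adjusted p = 0.00762, limma). It was higher in the visceral sample of 7 of 8 steers, with differences within a steer from -0.85 in steer 405 to 1.61 in steer 209. Before scaling it was higher in the visceral sample of 8 of 8 steers. The difference of bta-miR-365-3p was 0.57 (adjusted p = 0.0439, limma), and 7 of 8 steers had more of it in visceral fat. The exception was steer 111, whose subcutaneous sample had the highest value of that group (0.94) and whose difference was -0.89. With the steer as a replicate block, the adjusted p of bta-miR-365-3p was 0.0508. Before scaling, 4 of 8 steers had more of it in visceral fat.

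On the high fat diet, bta-miR-365-3p was higher in visceral fat by 0.79 (standard error 0.20, adjusted p = 0.00411, limma) and in 8 of 8 steers, from 0.30 in steer 411 to 1.47 in steer 204. Its groups did not overlap, and among all miRNAs tested 6.01% were higher in visceral fat without overlap. Bta-miR-193a-5p was higher by 0.63 (adjusted p = 0.0385, limma) and in 7 of 8 steers, the exception being steer 302 at -0.31. Without scaling, the differences were -0.073 for bta-miR-365-3p and -0.24 for bta-miR-193a-5p, and neither passed the threshold. Relative to the median of the 91 miRNAs, the differences were 0.65 and 0.49 on the high fat diet and 0.56 and 0.82 on the control diet. No member had a depot difference that passed the threshold for differing between diets, against 1.72% of all miRNAs tested (interaction of 0.39 for the 3p arm, -0.20 for the 5p arm and 0.23 for bta-miR-365-3p, each with an adjusted p of 0.849 or above from limma), with 95% intervals from -0.93 to 1.72, from -0.85 to 0.45 and from -0.35 to 0.81.

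**Figure D5:**
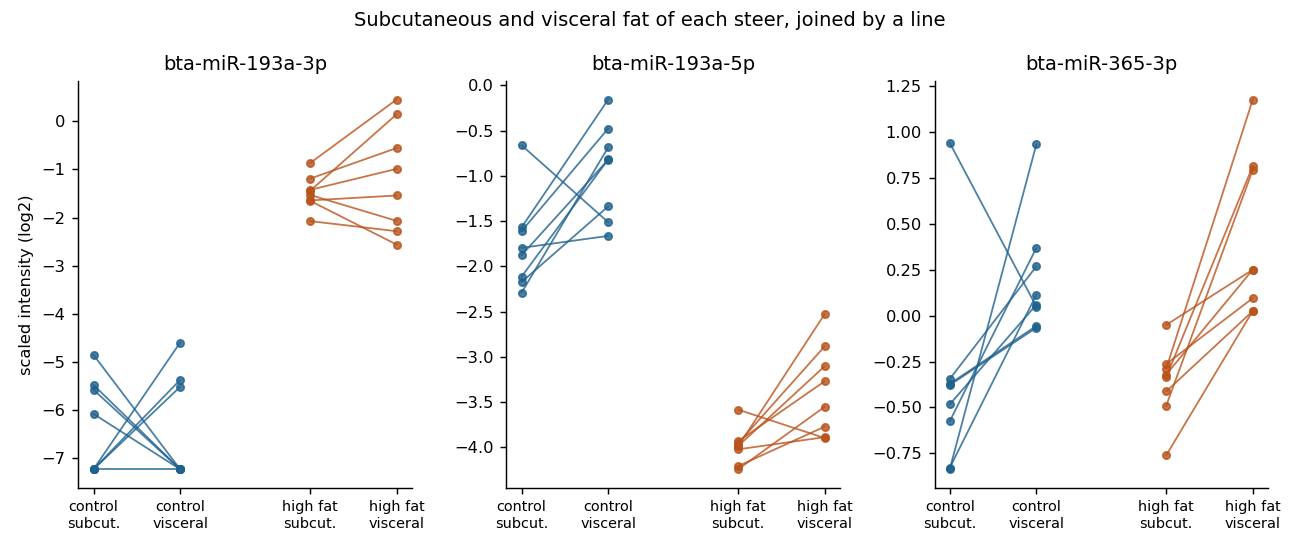
Log2 scaled intensity of the 3 members tested in the subcutaneous and visceral fat of each steer, joined by a line, on the control (blue) and the high fat diet (orange). Bta-miR-365-3p is higher in the visceral fat of all 8 steers on the high fat diet and of 7 of 8 on the control diet, an order that is lost without scaling (5 of 8 and 4 of 8), and bta-miR-193a-3p spreads more in visceral than in subcutaneous fat on the high fat diet.

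The depot difference of bta-miR-193a-3p was -0.09 in control steers, where most samples were at the floor, and 0.30 in high fat steers (adjusted p = 1 and 0.722, limma). Its values on the high fat diet spread more widely in visceral fat, with an SD of 1.13 against 0.35 in subcutaneous fat (log2, n = 8 each). The highest visceral intensity before scaling, in steer 302, was 12.1 times the lowest, in steer 303, while this ratio was 3.09 in subcutaneous fat. After scaling, 5 of 8 steers had more of the 3p arm in visceral fat and 3 had less, from -0.91 in steer 204 to 1.59 in steer 411. The change of the 3p arm against the 5p arm between depots was -0.92 in control and -0.33 in high fat steers, with p = 0.215 and 0.580 in two-sided exact permutation tests.

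Within the groups, the members were compared across the 8 steers in 8 relations, all on arrays of 1 slide. In visceral fat on the high fat diet, bta-miR-365-3p and bta-miR-193a-5p varied together, with a Pearson r of 0.91 (exact permutation p = 0.00441, adjusted p = 0.0353) and a Spearman rho of 0.81 (exact permutation p = 0.0218, adjusted p = 0.0871). Without the 2 steers farthest from the median of bta-miR-365-3p, r was 0.71. Without scaling, r was 0.95 in this group (exact permutation p = 0.000942, adjusted p = 0.00694). In their subcutaneous fat, r was 0.50 after scaling (exact permutation p = 0.157, adjusted p = 0.314) and 0.93 without it. Between the arms of miR-193a, high fat steers had an r of -0.83 in visceral fat (exact permutation p = 0.0124, adjusted p = 0.0494), with a rho of -0.83 (exact permutation p = 0.0154, adjusted p = 0.0871) and an r of -0.77 without the 2 farthest steers. Without scaling this r was -0.23 (exact permutation p = 0.577, adjusted p = 0.797), or -0.83 without the 2 farthest steers, and both arms of an array share its scaling. In subcutaneous fat of the same steers the arms had an r of -0.05 (exact permutation p = 0.933) and a rho of 0 (exact permutation p = 1), with an r of 0.72 without the 2 farthest steers, and without scaling their r was 0.69 (exact permutation p = 0.0514, adjusted p = 0.103). Between bta-miR-193a-3p and bta-miR-365-3p, high fat steers had an r of -0.69 in visceral fat (exact permutation p = 0.0608, adjusted p = 0.162) and of 0.04 in subcutaneous fat (exact permutation p = 0.924), and without scaling these were -0.02 and 0.74 (exact permutation p = 0.959 and 0.0350). Between bta-miR-365-3p and bta-miR-193a-5p on the control diet, subcutaneous fat had an r of 0.24 and visceral fat one of 0.03 (exact permutation p = 0.378 and 0.985).

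The miRNAs whose scaled intensity followed each member most closely were taken as those with the highest Pearson r of deviations from the 4 group means, among the miRNAs detected on all arrays. For bta-miR-193a-5p, over 32 arrays, these were bta-miR-320 (r = 0.91), bta-miR-197 (r = 0.84) and bta-miR-423-5p (r = 0.83), against a median r of 0.11 over the 90 candidates. For bta-miR-365-3p, over 32 arrays, they were bta-miR-10b (r = 0.77), which comes from a HOX gene cluster, bta-miR-145 (r = 0.75), a miRNA of smooth muscle and stromal cells, and bta-miR-30f (r = 0.72), against a median of 0.25. For bta-miR-193a-3p, over the 23 arrays on which it was detected, they were bta-miR-15a (r = 0.63), bta-miR-34a (r = 0.58) and bta-miR-27b (r = 0.50), against a median of -0.18 over 91 candidates. These r values are a description of arrays that share a scaling. Of the members, only bta-miR-193a-5p and bta-miR-365-3p were detected on all arrays and could be candidates. Neither was among the closest of another member, and the other members could not appear.

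Other miRNAs known from brown and beige fat gave a setting for these values. A list of 21 such miRNAs matched 23 features, of which 20 were tested. On the high fat diet, 10 of the 20 rose, 5 fell and 5 did not pass the threshold in subcutaneous fat, and 11 rose, 5 fell and 4 did not in visceral fat. Thus 15 of 20 and 16 of 20 were called, beside 76.0% and 71.7% of all miRNAs tested. The median difference over the list was 0.60 in the subcutaneous and 0.78 in the visceral depot, against 0.099 and 0.17 over all miRNAs tested. The balance turned on the scaling, as 20 rose and 0 fell in each depot with the spike-ins, while 5 rose and 7 fell in subcutaneous and 6 rose and 8 fell in visceral fat with the percentile over all miRNAs. The array as a whole shifted too. With the spike-ins, 216 of 240 miRNAs tested rose in subcutaneous and 181 in visceral fat. With the percentile over all miRNAs, 57 of 229 rose in subcutaneous and 64 in visceral fat.

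Of the list, the miRNAs that rose past the threshold in both depots under each of the 7 other scalings and corrections examined were bta-miR-106b, bta-miR-27a-3p, bta-miR-34a and bta-miR-30b-5p. The difference of bta-miR-26b was positive under each of them but did not pass the threshold with the percentile over all miRNAs (0.54 and 0.35) or the deposited values (0.38 and 0.41). Bta-miR-106b, of a cluster that restrains brown fat differentiation, rose by 4.48 in subcutaneous and 4.18 in visceral fat. Bta-miR-27a-3p, a repressor of adipogenesis, rose by 3.53 and by 4.18. Bta-miR-34a, which restrains browning in obese mice, rose by 2.62 and 2.57. Smaller rises were those of bta-miR-26b (1.78 and 1.47), bta-miR-93 (1.57 and 2.08) and bta-miR-32 (1.14 and 1.53), the last 2 being negative with normexp. Those of bta-miR-30c (0.94 and 1.68), bta-miR-27b (1.11 and 1.12) and bta-miR-26a (0.86 and 1.04), a promoter of brown-type differentiation, were negative in subcutaneous fat with the percentile over all miRNAs (-0.30, -0.12 and -0.38). With that percentile bta-miR-26a was also negative in visceral fat (-0.086), bta-miR-27b was near 0 there (-0.0027), and bta-miR-30c was negative in subcutaneous fat with normexp too (-0.32). The list also held bta-miR-30b-5p and bta-miR-30b-3p, whose values are given above. Some miRNAs that rose were not detected throughout. Bta-miR-106b was detected on 24 of 32 arrays, bta-miR-27a-3p on 27, bta-miR-93 on 25 and bta-miR-32 on 16. Their undetected arrays were held at the floor, so the size of their rises depends on it.

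The differences of bta-miR-328 were -1.93 and -1.72, of bta-miR-155, which restrains brown fat differentiation, -1.24 and -1.57, and of bta-miR-455* -1.61 and -0.87. All 3 were past the threshold in both depots (largest adjusted p = 0.0225, limma), and all 3 were positive in both depots with the spike-ins and without scaling. Between depots, bta-miR-196a, known for inducing brown fat cells in white fat of mice, was higher in visceral fat by 4.39 in control and 4.16 in high fat steers. Bta-miR-378, encoded in the gene of the coactivator PGC-1 beta, was higher there by 0.89 and 1.49. Most subcutaneous values of bta-miR-196a were at the floor of -7.22 on both diets, so the size of its depot difference depends on the floor. This difference passed the threshold under each scaling and correction examined. That of bta-miR-378 stayed positive, but did not pass without scaling on either diet (0.51 and 0.62), nor in control steers with the percentile over all miRNAs (0.80), the spike-ins (0.67) or the deposited values (0.59). Bta-miR-30c was higher in visceral fat by 0.58 on the high fat diet (-0.29 without scaling), and the visceral minus subcutaneous difference was -0.71 for bta-miR-155 in high fat steers (0.23 with normexp) and -0.60 for bta-miR-125b in control steers. Between depots, 3 of the 20 were called in control steers, beside 18.9% of all miRNAs tested, and 4 in high fat steers, beside 26.2%.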

How the data were processed

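Total RNA was labelled with Cy3 at the 3′ end and hybridized on 32 Agilent miRNA arrays. According to the methods and file headers, the authors extracted the scans with Feature Extraction 10.7.3.1 and deposited spot and total intensities, background subtracted, not scaled between arrays and with 0.1 for an undetected miRNA. A table of log2 values, which GeneSpring had set to the 75th percentile, was deposited too. The members and lists were chosen with earlier results of these data known, and every feature that the name rule gave is described.

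Scaling used the array's 75th percentile over the 91 miRNAs that every array detected, with a floor of -7.22 (log2). Of 240 miRNAs detected on at least 8 arrays, 7 at the floor throughout were left out. The other 233 were tested with limma 3.58 in R 4.3 (4 groups in 1 fit, two-sided, Benjamini-Hochberg adjusted p under 0.05) and tested on simulated data. Single values were compared by exact permutation tests in SciPy 1.17. Alternatives were other scalings, background corrections, floors, filters, blocks and the methods' t-test. Outlier-marked spots were left out where spots were used. The precision is limited by 8 arrays a group.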

Additional observations from a re-analysis of the deposited data

Results flagged for a closer look

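In 4 of 12 groups of 8 samples checked, the highest sample lay apart from the other 7 by more than Dixon's 95% critical value allows for the range of its group. Chance alone flags about 1 in 20 such groups, and no test of these samples was made. In subcutaneous fat on the control diet, bta-miR-193a-5p had a scaled intensity of -0.66 (log2) in steer 405, against -1.57 in the next highest sample. On the same diet and depot, bta-miR-365-3p had 0.94 in steer 111, against -0.35 in the next. In visceral fat on the control diet, bta-miR-365-3p had 0.93 in steer 307, against 0.37 in the next. In subcutaneous fat on the high fat diet, bta-miR-193a-5p had -3.58 in steer 302, against -3.93 in the next.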

How the results depend on the processing

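Which members passed the threshold depended on the scaling. Between diets, 2 of the 3 members passed it in each depot, and 1 did in subcutaneous fat with normexp and, in each depot, when only miRNAs detected on all arrays were tested, a filter that leaves out bta-miR-193a-3p. All 3 passed in both depots with the percentile over all miRNAs, the deposited values and the spike-ins, in subcutaneous fat without scaling, and in visceral fat with scaling to bta-miR-181a. The diet difference of bta-miR-193a-5p in subcutaneous fat was 0.68 without scaling and 0.94 with the labelling spike-ins, and in visceral fat 0.45 with the spike-ins. That of bta-miR-365-3p in subcutaneous fat was 2.91 without scaling, 3.16 with the spike-ins and 2.0 with scaling to bta-miR-181a, and in visceral fat -0.90 with the percentile over all miRNAs of the array and -0.85 from the deposited values. These scalings moved the median of the 91 miRNAs detected on all arrays between -2.30 and 2.26.

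Between depots on the control diet, in place of 2 members, 0 passed with the percentile over all miRNAs, no scaling, the spike-ins, normexp, the deposited values or the methods' t-test with Bonferroni correction, and 1 with quantile normalization, bta-miR-181a, a floor at an intensity of 1, undetected arrays at their own limit, the slide position as a block or the steer as a replicate block. Over all miRNAs tested, the settings with 0 members called, in that order, 25 of 229, 27 of 240, 12 of 240, 9 of 240, 31 of 221 and 4 of 233. Those with 1 member called 32 of 223, 33 of 239, 41 of 240, 35 of 240, 41 of 233 and 41 of 233. On the high fat diet, 0 passed with the percentile over all miRNAs, no scaling, the spike-ins, the deposited values or the methods' t-test, and 1 with quantile normalization, bta-miR-181a or the slide position. Without scaling, the difference there was -0.24 for bta-miR-193a-5p and -0.073 for bta-miR-365-3p. The cause of these changes was not tested.

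The change of the miR-193a arm difference between diets stayed between 2.34 and 7.33 in subcutaneous and between 2.36 and 7.87 in visceral fat under every alternative run, with an exact permutation p of 0.0121 or below. Between depots on the control diet it passed the threshold with normexp (-0.26, exact permutation p = 0.00404) and with the first-listed probes of both arms (-0.53, exact permutation p = 0.0149).

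Detection of the dim members changed with the call. With a deposited value above 0, bta-miR-193b was counted on 0 high fat arrays in each depot and bta-miR-365-5p on 0. With a probe well above background, bta-miR-193b was counted on 1 in each depot, and bta-miR-365-5p on 1 subcutaneous array of the control and 2 of the high fat diet.

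Both depots came from the same steers. With the steer as a replicate block, bta-miR-365-3p lost its call between depots on the control diet (adjusted p = 0.0508), and the other members kept theirs in all contrasts, bta-miR-193a-5p with adjusted p = 0.0097 in control and 0.0449 in high fat steers. Deviations from the group means correlated between the samples of a steer by -0.39 to 0.65, above 0.1 in 5 of 16 steers. The numbers of arrays and the detection limit, higher relative to the scaled signal on the dim control arrays, limit what can be seen.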
